A study of Mus musculus with 82 samples.

Results

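The 3 lists of genomic regions enriched with an antibody against CDX2 in wild-type stembryos were described, at 72, 96 and 120 h after aggregation, over the whole genome except the 4 Hox gene clusters. After summits sharing an interval were merged, the lists held 146 regions at 72 h, 4458 at 96 h and 2241 at 120 h, which were 6845 of the 6920 CDX2 regions on assembled chromosomes. The other 1, 43 and 31 regions lay inside the Hox clusters and were left out. The 3 lists were 3 of the 82 samples of the series, and 57 further wild-type lists for 7 other antibodies (H3K27ac, H3K27me3, total and Ser2-phosphorylated RNA polymerase II, NIPBL, RAD21 and CTCF) were used to describe the same positions.

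Stembryos, also called gastruloids, are aggregates of mouse embryonic stem (mES) cells that elongate into a structure resembling the posterior embryonic body. All groups used here were wild type and were grown from 1 line of 129-background mES cells, and stembryos received the Wnt agonist Chiron between 48 h and 72 h. Lists of other antibodies for 48 h came from aggregates collected before this pulse. Thus, the 72 h stembryos were collected at the end of the pulse, the 96 h stembryos 24 h after it and the 120 h stembryos 48 h after it. Stembryos of a stage were pooled, and from 108 h onward only elongating ones were taken. Each CDX2 list came from 1 library, so that stages could be described but not tested against each other, and every interval given below covers counting error only. Of 26 genes chosen as markers of the tissues a stembryo may hold, 20, 20 and 18 had an H3K27ac region within 1 kb of a start in the time-course libraries of 72, 96 and 120 h. The extra-embryonic and lateral mesoderm markers Elf5 and Hand1 had one in no library of these stages. However, Krt8, also a trophectoderm gene, had one in all of them, and the mesoderm marker Kdr in the time-course library of each stage. These marks therefore do not settle which tissues were absent.

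CDX2 is a homeodomain transcription factor of the caudal family. In the gastrulating embryo it is produced in the primitive streak and the tail bud, downstream of Wnt signaling, and it is required for the posterior body axis to extend. It is also known for its roles in the trophectoderm and in the intestinal epithelium. CDX proteins recognize AT-rich sequences, of which 3 forms of 7 letters were searched on both strands, hereafter CDX cores. One form is CAATAAA. The other ones are TCATAAA, which differs from it in its first bases, and the CpG-containing TCGTAAA.

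Summit sequences are shown for 8 regions, picked among the strongest signals, the regions found at all stages, or positions next to genes of the posterior body. Where a gene had regions with a CDX core, the strongest of those was taken. These 8 therefore do not show how often a core was present. Some stronger regions without a core, such as the one nearest Cxcl12 at 96 h, are not shown. They were taken from the RefSeq copy of the mouse genome (GRCm38, whose chromosomes are those of mm10), are written on the plus strand, and have the CDX cores in capitals.
Eri3 96 h: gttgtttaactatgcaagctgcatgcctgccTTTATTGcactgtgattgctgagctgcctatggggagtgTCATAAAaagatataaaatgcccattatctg
Olig2 96 h: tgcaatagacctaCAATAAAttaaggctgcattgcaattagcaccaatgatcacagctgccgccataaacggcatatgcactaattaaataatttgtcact
Bdh1 96 h: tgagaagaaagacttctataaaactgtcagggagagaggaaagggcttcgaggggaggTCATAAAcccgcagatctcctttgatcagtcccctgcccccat
Lrrc18 120 h: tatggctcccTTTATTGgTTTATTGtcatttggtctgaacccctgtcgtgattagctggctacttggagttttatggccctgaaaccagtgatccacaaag
Fzd10 96 h: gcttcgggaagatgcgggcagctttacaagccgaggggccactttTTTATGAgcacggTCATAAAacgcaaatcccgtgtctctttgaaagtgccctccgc
Fgf8 72 h: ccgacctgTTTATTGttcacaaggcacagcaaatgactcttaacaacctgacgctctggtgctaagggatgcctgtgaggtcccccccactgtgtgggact
Cdx2 96 h: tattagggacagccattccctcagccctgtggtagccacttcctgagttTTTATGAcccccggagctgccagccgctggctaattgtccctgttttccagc
Meis3 96 h: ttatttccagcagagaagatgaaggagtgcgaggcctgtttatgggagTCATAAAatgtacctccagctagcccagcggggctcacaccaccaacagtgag

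Each sequence is named for the nearest start of a protein-coding gene. They lay at chr4:117630478-117630578 (Eri3, an intron), chr16:91176022-91176122 (Olig2, intergenic), chr16:31535380-31535480 (Bdh1, intergenic), chr14:32986821-32986921 (Lrrc18, an intron), chr5:128600369-128600469 (Fzd10, 0.425 kb upstream of its start), chr19:45722997-45723097 (Fgf8, intergenic), chr5:147309393-147309493 (Cdx2, 2.17 kb upstream) and chr7:16174198-16174298 (Meis3, 0.842 kb upstream). The Eri3, Lrrc18 and Fzd10 windows held more than 1 core each. The others held a single core.

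Another set of sequences came from a repeat that a part of the CDX2 regions had in common. Among the 96 h regions, 91 held members of the same family of dispersed repeats, recognized here by stretches of 16 letters that recurred from region to region. Below, 4 of them are written in the same direction, and the cores are again in capitals.
Zpld1 96 h: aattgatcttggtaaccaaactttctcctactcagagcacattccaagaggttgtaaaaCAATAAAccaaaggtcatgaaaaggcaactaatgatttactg
Trim24 96 h: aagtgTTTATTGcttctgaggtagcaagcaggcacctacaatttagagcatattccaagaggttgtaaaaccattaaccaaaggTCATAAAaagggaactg
Magi2 96 h: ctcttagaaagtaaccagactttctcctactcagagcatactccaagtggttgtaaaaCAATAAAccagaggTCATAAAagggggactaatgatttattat
Apol9b 96 h: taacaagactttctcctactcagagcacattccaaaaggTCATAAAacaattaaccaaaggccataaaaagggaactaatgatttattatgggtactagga

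These copies lay at chr16:54229973-54230073 (Zpld1, plus strand, intergenic), chr6:37925261-37925361 (Trim24, minus strand, intron), chr5:19618123-19618223 (Magi2, minus strand, intron) and chr15:77743123-77743223 (Apol9b, plus strand, intergenic). The 4 are the strongest copies in introns or between genes that held a core and were also called at 120 h. A core in each of them therefore follows from the choice, and those named for Trim24 and Magi2 held 2. In the whole family at 96 h, 60 of the 91 regions held a core.

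The lists differed in length by a wide margin. The caller computes each fold enrichment from a pileup and a local background, and both could be solved from the deposited values for all regions tried. The lowest background, which rises with the number of fragments in a library, was 2.52, 2.70 and 2.47 fragments per base at 72, 96 and 120 h. The median fold enrichment was 5.96, 5.13 and 5.21, and 25, 229 and 83 regions reached a fold enrichment of 10. Thus, 96 h had the most regions at this strength as well, on a background that differed little between the 3 libraries.

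The very highest positions were not particular to CDX2. Regions that overlapped at least 1 wild-type list of each of the 7 other antibodies are called recurrent here, a definition made after the data had been seen. They numbered 54 of 146 regions at 72 h (37.0%), 67 of 4458 at 96 h (1.503%) and 63 of 2241 at 120 h (2.81%), and filled 17, 8 and 13 of the 20 strongest ranks. Of the recurrent regions, 49, 48 and 47 were in all 3 CDX2 lists. The first 3 ranks were held by the same regions at every stage, named for their nearest genes Rpusd4, Rab10 and Chl1, with fold enrichments of 38.9, 31.8 and 25.7 at 96 h. The region nearest Limd1, ranked 5, 4 and 4, lay in an exon, and the Rpusd4 and Limd1 regions overlapped all 57 other lists. A CDX core lay within 50 bp of the summit in only 1, 2 and 2 recurrent regions. Values are therefore given below with and without recurrent regions, which left 92, 4391 and 2178 regions.

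**Figure D1:**
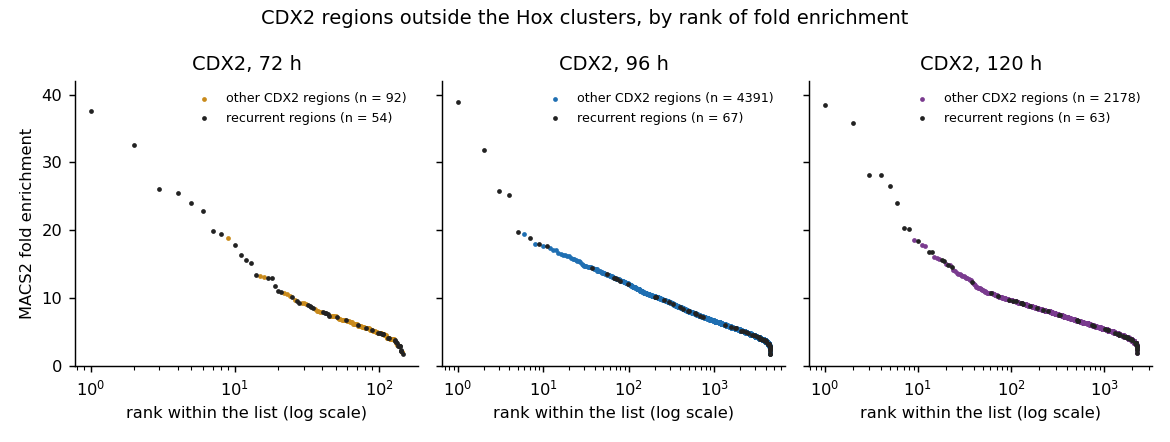
Fold enrichment over background (y axis) against rank within the list (x axis, log scale) for CDX2 regions outside the Hox clusters at 72, 96 and 120 h; black points are recurrent regions and coloured points all others. The recurrent regions hold 17, 8 and 13 of the first 20 ranks, and the top region reaches 37.6, 38.9 and 38.5.

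With recurrent regions set aside, the 20 strongest CDX2 regions of each later list were examined, a choice made after recurrent regions had been seen. The first at 96 h was in an intron 47.8 kb from the start of Eri3, an exoribonuclease gene (chr4:117630336-117630691), with a fold enrichment of 19.4, and it held 2 CDX cores. It was also the strongest at 120 h, at 18.5, and it was not in the 72 h list. The second lay 239 kb from Cxcl12, which encodes a chemokine, at 18.0 and 17.9 at 96 and 120 h. The next were nearest to Adgrl2, an adhesion receptor gene (472 kb away, 17.6), Pacsin1 (2.07 kb, 17.4) and Htatip2 (54.3 kb, 17.2). The region named for Olig2, a regulator of motor neuron progenitors, followed at 17.1 and lay 49.4 kb from its start. None of the 20 strongest of these regions at 96 h or at 120 h was within 1 kb of a start.

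Ranks of some of these regions are given for both lists, which differ in length and rest on 1 library each, so that no change between stages is read from them. The region by Pacsin1 was 12th at 96 h and 1389th at 120 h, the one by Fgf18, a fibroblast growth factor gene, 18th and 1058th, the one by Kazald1 25th and 1561st, and the one by Klf6, a zinc finger factor gene, 16th and 451st. The regions by Eri3, Cxcl12, Adgrl2 and Themis3 were within the first 20 ranks in both lists (6th, 8th, 10th and 19th at 96 h, and 9th, 11th, 15th and 12th at 120 h). The region nearest Fzd8, a Wnt receptor gene 279 kb away, ranked 34th at 120 h and 2471st at 96 h. Ranks are compared here because heights depend on each library.

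Binding was mostly distal at the 3 stages. A summit lay within 1 kb of the start of a protein-coding transcript in 19 of 146 regions at 72 h (13.0%, 95% exact Clopper-Pearson interval 8.02-19.6%), in 391 of 4458 at 96 h (8.77%, 7.96-9.64%) and in 156 of 2241 at 120 h (6.96%, 5.94-8.09%). Such windows cover 2.37% of the genome. Without recurrent regions the shares were 7.61%, 8.59% and 6.47%, and as many of the strongest 96 h regions as the 120 h list holds gave 5.85%. In the same series, 35.7% of H3K27ac regions and 80.7% of RNA polymerase II regions at 96 h, 41.9% of H3K27me3 regions and 10.0% of CTCF regions at 72 h lay as near to a start, of which the CTCF share was the closest to those of CDX2. Of the 96 h regions without recurrent ones, 38.2% were in introns, 1.43% in exons and 51.8% between genes. The median distance from a summit to the nearest start was 23.6 kb at 72 h, 36.7 kb at 96 h and 40.0 kb at 120 h.

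Regions near a start were more frequent among the weaker ones. When the 4391 regions of 96 h were divided into 4 equal groups by fold enrichment, 3.46% of the strongest group and 13.8% of the weakest lay within 1 kb of a start. At 120 h, the shares were 3.30% and 14.2%. CDX cores ran the other way, with 31.7% of the strongest group and 18.2% of the weakest at 96 h, and 37.6% and 22.6% at 120 h.

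CDX cores were more frequent under the summits than beside them at the later stages, and they lay close to the summit. Within 50 bp of it, a CDX core was found in 1133 of 4458 regions at 96 h (25.4%, 24.1-26.7%) against 4.43% of windows of the same length 500 bp away, and in 698 of 2241 at 120 h (31.1%, 29.2-33.1%) against 4.31%. Among as many of the strongest 96 h regions as the 120 h list holds, the share was 30.5%. At 72 h, 12 of 146 regions held a core (8.22%, 4.32-13.9%) against 3.42%, and without recurrent regions 11 of 92 (11.96%, 6.12-20.4%) against 3.804%. Of the 3 forms, TCGTAAA was the rarest but had the highest ratio of summits to flanks, at 3.03% against 0.202% at 96 h and 3.26% against 0.156% at 120 h. CAATAAA was found in 13.8% and 17.1% of regions, against 2.27% and 2.23% of flanks. The shorter ATAAA, which CAATAAA and TCATAAA contain, was in 51.7% and 58.8% of windows against 28.3% and 28.1%. Thus, most listed regions held none of the 3 searched forms near the summit, and other CDX forms were not counted. Recurrent regions left out, the word CCATAA, part of none of the 3, was in 15.9% of 96 h windows against 4.41% of flanks. At 120 h its shares were 17.7% and 4.16%.

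**Figure D2:**
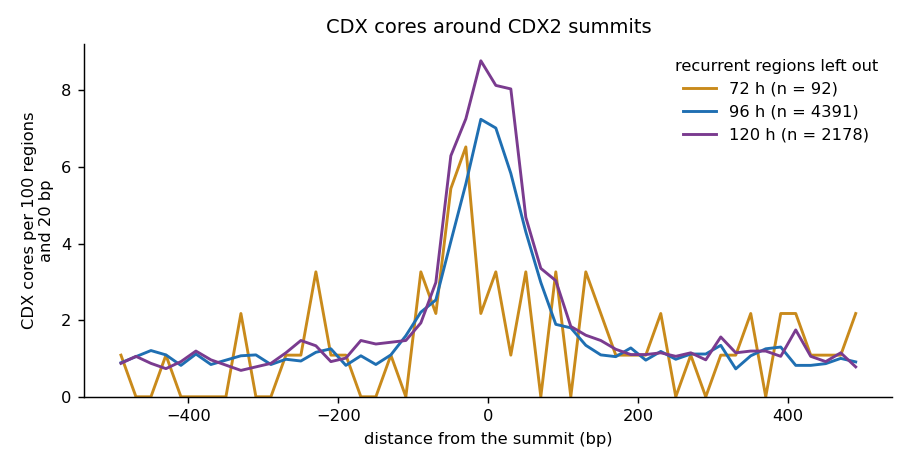
CDX cores per 100 regions in bins of 20 bp (y axis) by distance from the CDX2 summit (x axis) at 72, 96 and 120 h, recurrent regions left out. The profile peaks at 8.77 cores per 100 regions at 120 h and at 7.24 at 96 h in the bin just before the summit, and the 72 h line, from 92 regions, rests on at most 6 cores per bin.

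Words of 6 letters, counted without choosing a motif, gave the same picture at the later stages. CATAAA was the word that differed most between summits and flanks at 96 h (25.1% against 7.70%) and at 120 h (30.4% against 7.85%), followed by ATAAAA, and words such as CAATAA and GTTTTA came next. At 72 h, instead, the leading words were AACCTG (20.7% against 5.43%), CACAGG (21.7% against 7.07%) and TGCTAA (19.6% against 4.89%) among 92 regions, several of which were copies of one another, as described below.

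Other sequences of signaling and patterning factors also lay under the summits. ATCAAAG, recognized by the TCF and LEF factors that act in Wnt signaling, was in 6.21% of 96 h windows (5.52-6.96%) against 1.67% of flanks, and in 3.35% of 120 h windows (2.64-4.18%) against 1.72%. GGTGTGA, a T-box sequence, was in 3.25% (2.75-3.82%) against 1.22% at 96 h and in 1.78% (1.28-2.42%) against 1.29% at 120 h. With 1 library per stage and lists of unequal length, no difference between stages is read from these shares. TGATTNAT, a composite of PBX and HOX sites, stood at 5.05% and 4.51% against 1.84% and 1.70%. ACAAAG of SOX factors was found in 12.02% and 14.3%, against 9.37% and 9.28%. CAGCAGG of ZIC factors was in 8.12% and 9.42% against 2.88% and 2.59%. At 72 h, without recurrent regions, it was in 12 of 92 (13.0%, 6.93-21.7%) against 1.09%. Of these 92 regions, 19 shared sequence with another one, as described below, and the 12 were not checked for such copies. AGATAA of GATA factors was at 5.23% and 6.25% against 5.80% and 5.76%. A match of letters describes a window and is not evidence that the factor binds there.

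The dispersed repeat family made up a measurable part of the later lists. It was defined, after seeing the data, as the largest set of overlapping 16-letter stretches that each occurred in at least 10 regions of a list, recurrent regions left out. It comprised 91 of 4391 regions at 96 h (2.07%) and 59 of 2178 at 120 h (2.71%), spread over 20 and 19 chromosomes. The commonest stretch at 96 h, tccaagaggttgtaaa, was in 45 regions, and had 312 exact copies on the assembled chromosomes. None of the family regions was in the 72 h list. However, only 69 of all 4391 regions at 96 h (1.57%) and 50 of all 2178 at 120 h were in it. With so few copies, their absence at 72 h is therefore not read as a trait of the family. Of the 91, 49 were also called at 120 h (53.8%), against 31.7% of the other 96 h regions. The soft-masked share is the part annotated as repeat in the genome sequence. Its median in the family was 76.7% at 96 h, against 7.31% in the other regions.

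Copies of the family carried CDX cores more often than the other regions did, and H3K27ac less often. The family was defined by stretches in the same windows in which cores were counted, so its core share partly follows from that choice. Its regions are related copies, whereas the intervals treat them as independent. A core was within 50 bp of the summit in 60 of 91 regions at 96 h (65.9%, 55.3-75.5%), against 24.9% of the other 4300, and in 36 of 59 at 120 h (61.0%, 47.4-73.5%), against 31.1% of the other 2119. H3K27ac of the same stage overlapped 14 of 91 (15.4%, 8.67-24.5%) against 38.0% at 96 h, and 1 of 59 (1.69%, 0.0429-9.09%) against 23.8% at 120 h. Of the family, 85 of the 91 and 58 of the 59 overlapped a NIPBL region of some stage. The same count was not made for the other regions. NIPBL overlapped many CDX2 regions in general, as given below, so this is not read as a trait of the family. Their median fold enrichment was 5.71 and 5.77. The highest, 12.2 at 96 h (rank 95), lay 2.29 kb from the start of the olfactory receptor gene Olfr535. Only 1 region of the family at each stage was within 1 kb of a start. The authors kept only alignments of high mapping quality, which leaves out reads that fit several copies equally well. The effect of this on the values was not tested.

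**Figure D3:**
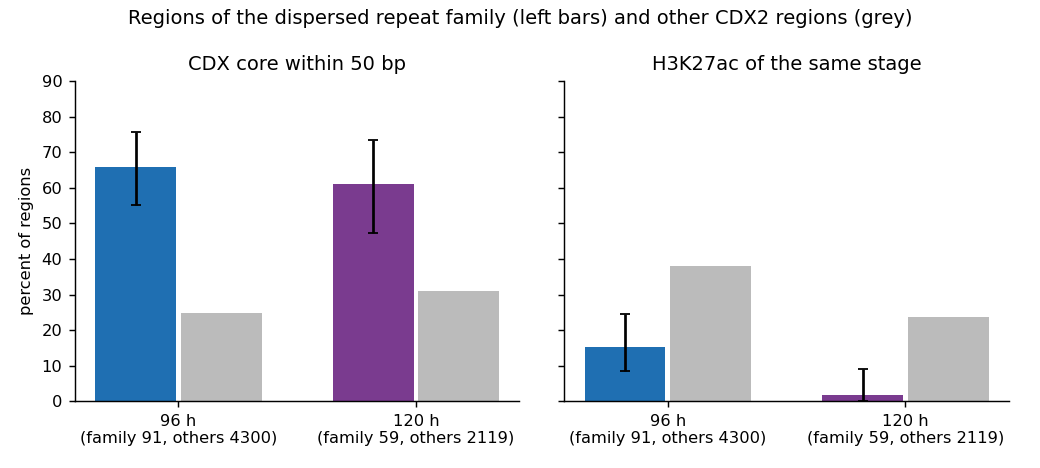
Percent of regions with a CDX core within 50 bp of the summit (left panel) and overlapping H3K27ac of the same stage (right panel), for regions of the dispersed repeat family (coloured bars, with exact 95% intervals) and other CDX2 regions (grey bars) at 96 and 120 h, recurrent regions left out. Family regions reach 65.9% and 61.0% for the core, and 15.4% and 1.69% for H3K27ac, against 24.9%, 31.1%, 38.0% and 23.8% in the others.

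The few 72 h regions were then examined one by one. Beside the 54 recurrent regions, 92 remained, with a median fold enrichment of 5.70 and a highest value of 18.9, in the intergenic region 421 kb from Klf6 (chr13:5440448-5440771). All 92 overlapped at least 6 of the 57 lists of other antibodies, with a median of 18.5, and 90 overlapped a RAD21 region of some stage. At 72 h itself, NIPBL, a loader of cohesin, was called over 61 of the 92 (66.3%), and NIPBL regions cover 0.0927% of the genome at that stage. RAD21, a cohesin subunit, was called over 71 (77.2%) in the library numbered 1 and over 53 (57.6%) in that numbered 2, and RNA polymerase II over 61 (66.3%). Yet only 7 of the 92 lay within 1 kb of a start, and H3K27ac of 72 h overlapped 33 (35.9%, 26.1-46.5%). CTCF of 72 h overlapped 13 (14.1%).

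Later CDX2 lists contained most of these early regions. Of the 92, 69 were called again at 96 h (75.0%, 64.9-83.4%), 50 at 120 h (54.3%, 43.6-64.8%) and 44 at both, and 17 were in neither list. Of the 69, 26 ranked within the first 10% of the 96 h list, and 11 of the 50 within the first 10% of the 120 h list. The region by Fgf18 was 23rd at 72 h and 18th at 96 h, and the one by Itih5 50th at 72 h, 32nd at 96 h and 40th at 120 h. The 17 regions without later counterpart had a median fold enrichment of 4.54, and 0 of them held a core. The strongest of the 17, which lay 469 kb from Wac, reached 9.22.

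A subset of 11 regions carried a CDX core, and all 11 were called again at 96 h, 7 of them also at 120 h. They lay nearest to Lrrc18, Fzd10, Bdh1, Grik3, Grsf1, Fgf8, Zeb2, Smim8, Fgf1, Nfu1 and Cd70, and this subset was picked out after its values had been seen. The Lrrc18 region was the strongest of them, with fold enrichments of 13.1 at 72 h (rank 16) and 15.8 at 120 h (rank 17), and at 96 h it ranked 76th. Its window holds a pair of cores separated by 1 base. The Bdh1 region ranked 49th at 72 h, 23rd at 96 h and 30th at 120 h, and the fold enrichment was 7.35, 15.7 and 13.3. None of the 11 overlapped an H3K27me3 or CTCF list, where 18 and 17 of all 92 regions did. H3K27ac of 72 h was over 2 of the 11 and over 33 of the 92. With 11 regions, no difference is read from these counts.

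Of the 11, the Fzd10 region was the only one at a promoter. Fzd10 encodes a Frizzled receptor for Wnt ligands. Its region lay 0.374 kb upstream of the start at 72 h and 0.425 and 0.420 kb upstream later, with fold enrichments of 9.28, 10.3 and 9.37 and ranks of 30, 196 and 120, and it held both a TTTATGA and a TCATAAA sequence, which are the same core on opposite strands. Near Fgf8, which encodes a fibroblast growth factor of the streak and tail bud, 2 regions were called at 72 h, at 19.6 kb (5.76) and 9.27 kb (4.83). The first was found at 96 h at rank 860 and the second in neither later list.

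Part of the 72 h list consisted of sequence copies. Of the 92 regions, 19 shared a stretch of 16 letters with another one (20.7%), in 4 groups of which the largest had 8 members, and 0 of the 19 held a CDX core. Of the 7 promoter-proximal regions, 5 lay at the beginning of chromosome 9, near the predicted genes Gm10719, Gm10717 and Gm11168, the strongest at chr9:3020254-3020506 with a fold enrichment of 9.67. At 96 h, 825 of 4391 regions (18.8%) shared such a stretch, as did 329 of 2178 (15.1%) at 120 h.

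Lists overlapped in relation to strength. Of the 4458 regions at 96 h, 1471 were called at 120 h (33.0%, 31.6-34.4%), and of the 2241 at 120 h, 1474 were called at 96 h (65.8%, 63.8-67.7%). In the strongest of 4 equal groups without recurrent regions, 65.8% of the 96 h regions were found at 120 h, and in the weakest 10.8%. Likewise 89.4% and 40.3% of the 120 h groups were found at 96 h. Regions in both lists held a core in 34.2% of cases at 96 h, against 21.8% of those not called at 120 h, and lay near a start in 4.75% against 10.4%.

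CDX2 regions were then compared with the H3K27ac time course, H3K27ac being a mark of active enhancers and promoters. Recurrent regions left out, the 96 h regions overlapped H3K27ac in 15.1% of cases at 48 h, before the pulse, 18.4% at 72 h and 22.0% at 84 h. The share was highest at 96 h, the stage of the CDX2 library, at 37.6% (36.1-39.0%), and it lay below this in all later libraries of the time course, with 34.7% for 108 h, 26.9% for 120 h, 26.1% for 132 h, 17.7% for 144 h and 25.8% for 168 h. Across these stages, H3K27ac regions covered between 0.630% and 1.47% of the genome. The 13 H3K27ac lists differ in length, from 24002 to 67663 regions. No change between stages is therefore read from these shares or from the counts that follow. The 96 h regions with H3K27ac at 96 h but not at 48 h numbered 1128 (25.7%), those with the reverse pattern 139 (3.17%). However, 1920 of the 4391 (43.7%) overlapped H3K27ac at none of the 9 stages.

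The 120 h regions overlapped H3K27ac in 11.8% of cases in the 48 h library of the time course, 27.04% for 96 h, 29.0% for 108 h (27.1-31.0%) and 23.2% for 120 h (21.4-25.02%). In the numbered replicate libraries the shares were 40.8% and 37.1% for the 96 h regions at 96 h, and 31.0% and 29.9% for the 120 h regions at 120 h, so that for the 120 h regions the library decided whether 108 h or 120 h came first. The 72 h regions had shares between 20.7% (144 h) and 35.9% (72 h, 26.1-46.5%) in the time course, and 39.1% in the 96 h library numbered 1.

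**Figure D4:**
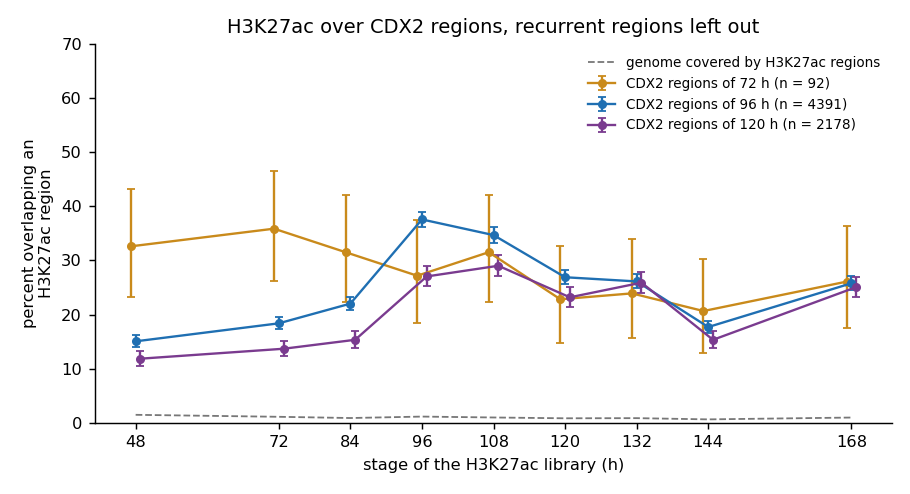
Percent of CDX2 regions of 72, 96 and 120 h (coloured lines, recurrent regions left out) that overlap an H3K27ac region (y axis) in each library of the time course (x axis, hours after aggregation). Bars are exact 95% intervals and the dashed line is the percent of the genome covered. The 96 h regions peak at 37.6% in the 96 h library and the 120 h regions at 29.0% in the 108 h library, while the numbered 120 h libraries, not drawn, gave 31.0% and 29.9%.

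NIPBL overlapped many of the later CDX2 regions. NIPBL of 96 h was called over 3210 of the 4391 regions of that stage (73.1%, 71.8-74.4%), on 0.593% of the genome, and NIPBL of 72 h over 569 of them (13.0%), on 0.0927%. The 120 h regions overlapped NIPBL in 57.7% of cases at 120 h and in 82.3% at 144 h. The 8 NIPBL lists differ in length, from 4888 to 40490 regions, so no change between stages is read from these shares. RAD21 varied between libraries of the same stage. At 96 h it overlapped 58.8% of the 96 h regions in the library numbered 1, 17.6% in that numbered 2 and 21.1% in that numbered 3. RNA polymerase II of 96 h overlapped 12.5% of the 96 h regions, and CTCF of 72 h 7.54%. H3K27me3 of 96 h, a Polycomb mark, overlapped 0.455% in the unnumbered library, which covers 0.239% of the genome.

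To describe targets, each of 21810 protein-coding genes was asked for a CDX2 region within 25 kb of a start. Such a region was present for 78 genes at 72 h (0.358%), 2407 genes at 96 h (11%) and 1133 genes at 120 h (5.19%), and these shares are the background for the gene lists below. The 17 lists were chosen with earlier results of these data known, and no test was run on them; genes singled out below were chosen with their values seen. A region counted for each gene with a start within 25 kb, also where the start of another gene was nearer. A nearby region does not show that the gene is a target.

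The Cdx genes themselves carried CDX2 regions. At 96 h all 3 of them had one, and at 120 h Cdx2 and Cdx4 did, whereas none did at 72 h. At Cdx2 the region lay 2.17 kb upstream of the start, with fold enrichments of 7.11 at 96 h and 5.67 at 120 h, and held a TTTATGA core. At Cdx4 it lay 4.62 kb downstream, in an intron, at 6.96 and 5.76, and was 1 of 3 at 96 h. At Cdx1 it lay 1.21 kb downstream at 4.24, at 96 h alone.

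Genes of Wnt signaling followed. Of 16 Wnt targets and feedback genes, 1 had a region at 72 h, 9 at 96 h (56.2%) and 4 at 120 h (25%), against 0.358%, 11% and 5.19% of all genes. At 96 h they were Fzd10, Axin2, Tcf7l2, Sp5, Sp8, Rspo3, Nkd1, Notum and Rnf43. Sp5, which encodes a zinc finger effector of Wnt signaling, had 5 regions at 96 h, the nearest 0.080 kb downstream of a start (5.37), and 1 at 120 h, 17.8 kb upstream (4.90). Axin2, a negative regulator, had a region 13.3 kb upstream at 96 h (7.17) and none within 25 kb at 120 h. Of 8 Wnt ligand genes, Wnt5a, Wnt5b and Wnt8a had regions at 96 h and Wnt5a and Wnt8a at 120 h. The strongest, 3.29 kb from a start of Wnt5a, stood at 10.5 at 96 h and 8.24 at 120 h.

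Genes of the primitive streak and of axial progenitors formed another list. Of 17 genes, 1 had a region at 72 h, 9 at 96 h (52.9%) and 3 at 120 h (17.6%), where 11% and 5.19% of all genes had one at 96 and 120 h. At 72 h, the region was 17.0 kb upstream of Nkx1-2, a marker of the caudal epiblast, and ranked 70th, 238th and 1072nd, with fold enrichments of 6.15, 9.89 and 5.36. It lay in an intron, and its nearest start was that of another gene, Lhpp, 5.95 kb away. Lhx1, a regulator of the anterior streak, had a region with a core 13.3 kb upstream at 10.2 and 7.66. T, which encodes Brachyury, had a region 19.9 kb upstream at 96 h (5.12), and Tbx6 and Msgn1, regulators of presomitic mesoderm, had regions 3.86 kb downstream (4.20) and 0.191 kb upstream (4.08) at 96 h only.

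FGF ligands and response genes came next, where 0.358%, 11% and 5.19% of all genes had a region at 72, 96 and 120 h. Of 14 genes, 1 had a region at 72 h, 8 at 96 h (57.1%) and 6 at 120 h (42.9%). Without recurrent regions, 5 genes had one at 120 h. For Fgf15, the region of the 120 h list was not one of its 96 h regions. It lay 0.558 kb from a start at 3.54 (rank 2098), held no core and overlapped all 6 H3K27me3 lists. At 96 h the genes were Fgf4, Fgf8, Fgf15, Fgf17, Dusp6, Spry2, Spry4 and Etv4. Of these, Fgf17 included a recurrent region, as it did at 120 h, where it had no other. The strongest was 24.2 kb upstream of Spry2, an inhibitor of FGF signaling, at 11.8 and 10.4 at 96 and 120 h. Dusp6, which encodes a phosphatase of the pathway, had a region with a core 5.88 kb from a start at 9.04 and 5.11. A region 7.86 kb downstream of Fgf8 reached 8.65 at 96 h (rank 405) and 5.27 at 120 h (rank 1102).

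Genes of somite formation were examined likewise, where 11% of all genes had a region at 96 h and 5.19% at 120 h. Of 15 genes of the Notch pathway and the segmentation clock, 8 had a region at 96 h (53.3%) and 2 at 120 h (13.3%), and 0 at 72 h. The 8 were Dll3, Notch1, Hes1, Hes5, Hes7, Nrarp, Mesp1 and Mesp2. The neighbouring Mesp1 and Mesp2 shared regions at 8.74 and 8.43, with 1 at 0.030 kb from the start of Mesp2, and Hes7, the oscillating repressor of the clock, had one 1.35 kb upstream at 8.67. Hes1 and Notch1 had regions with a core at both stages, 0.998 kb upstream and 2.07 kb downstream of a start at 96 h. Of 14 paraxial mesoderm and somite genes, 7 had one at 96 h (50.0%) and 4 at 120 h (28.6%). Among these, Meox1 had a region 4.35 kb downstream (5.82 and 4.61) and Foxc2 24.2 kb downstream (7.41 and 6.40).

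Neural, TALE and retinoic acid genes were also represented, again beside 11% of all genes at 96 h and 5.19% at 120 h. Of 19 neural tube genes, 7 had a region at 96 h (36.8%) and 4 at 120 h (21.1%). Msx1, a dorsal regulator, had one with a core 1.35 kb upstream at 9.55 and 6.28. Of the 9 genes of TALE homeodomain proteins, which act as cofactors of HOX proteins, 4 had a region at 96 h (Meis2, Meis3, Pbx3 and Pknox2) and 3 at 120 h (Meis3, Pbx3 and Pknox2). At each of the 4 genes a region of 96 h held a core, and the highest was in Pknox2, 1.44 kb from its start, at 10.9 and 5.84. Of 15 genes of the retinoic acid pathway, 4 had a region at 96 h (Aldh1a2, Rarg, Crabp1 and Stra6) and Aldh1a2 alone at 120 h. Aldh1a2, which makes retinoic acid, had it 1.57 kb downstream of its start at 6.72 and 4.95.

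Lists from other lineages served for comparison, beside the same 11% of all genes at 96 h and 5.19% at 120 h. Of 16 cardiac and vascular genes 5 had a region at 96 h (31.2%) and 3 at 120 h (18.8%), and Gata4 had one with a core 1.68 kb upstream at 6.58 and 7.65. Of 11 endoderm genes 3 and 4 did, among them Foxa2 at 96 h (8.92 kb, 7.43). Of 11 naive pluripotency genes 2 did at each stage, with Esrrb at 9.80 and 7.65, and of 9 formative epiblast genes none did. Among 15 intestinal genes, 3 had one at 96 h (Gucy2c, Cdhr5 and Isx) and 2 at 120 h, and among 10 trophectoderm genes, 4 did at 96 h (Tfap2a, Krt8, Id2 and Cdx2) and Cdx2 at 120 h. As many as 4 of 15 housekeeping genes had a region at 96 h (26.7%), among them Tbp (9.63), and Tbp alone had one at 120 h (6.67%).

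**Figure D5:**
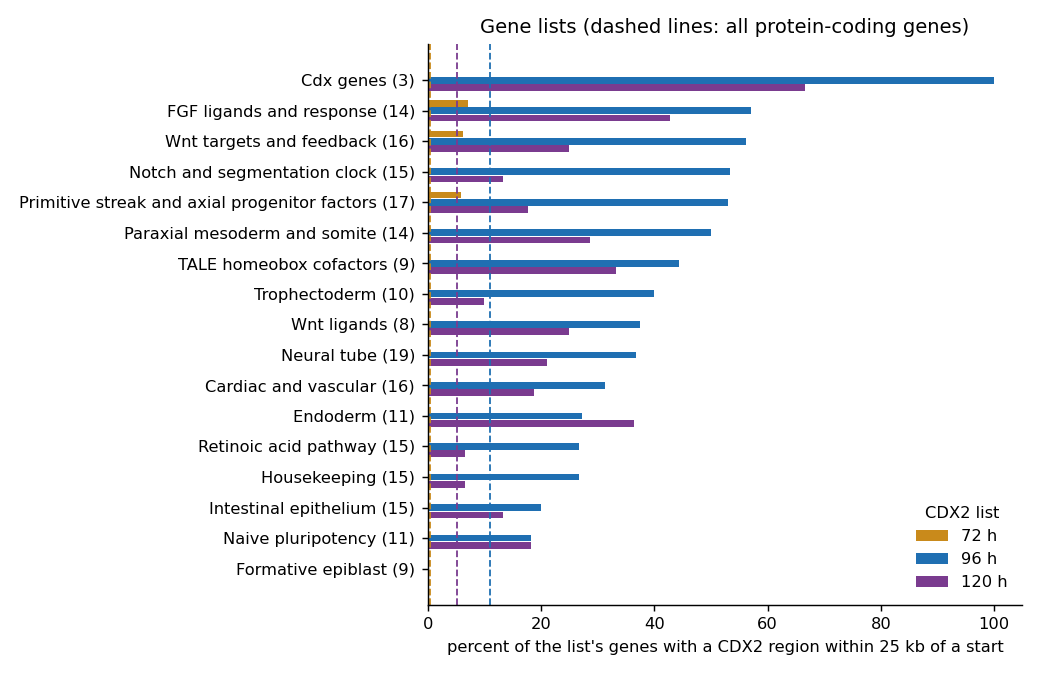
Percent of the genes of each of 17 lists (number of genes in brackets) with a CDX2 region within 25 kb of a start (x axis) at 72, 96 and 120 h. Dashed lines mark the share of all protein-coding genes, 0.358%, 11% and 5.19%, and the housekeeping list stands at 26.7% at 96 h.

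Some genes were surrounded by many regions. Regions other than the recurrent ones were assigned to the gene with the nearest start, and the stretch of chromosome nearer to its starts than to any other was measured. At 96 h, Lrmda came first with 16 regions on 1071 kb, or 14.9 per Mb, against 1.61 per Mb for all these regions. It was followed by Zfp703, which encodes a zinc finger corepressor (14 regions, 32.3 per Mb, 8 of them with a core), Tenm4 (13, 5.81 per Mb), Sall1, a zinc finger gene (11, 13.4 per Mb), Prickle1, of the planar cell polarity pathway (10, 18.5 per Mb) and Zfp608 (10, 8.10 per Mb). Adgrl2, Auts2, Irx3 and Tle3 had 9 each, Hes1 and Sox9 8 each, and Gse1, Pax3 and Ror2 7 each, as had Tex14 (47.4 per Mb). Ror2, which encodes a receptor for Wnt5a, stood at 35.3 per Mb.

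At 120 h, Lrmda again led with 11 regions (10.3 per Mb, against 0.799 per Mb for all these regions), then came Auts2 and Tenm4 with 10 each, Zfp608 with 9, Zfp703 with 8 (18.5 per Mb), and Hes1 (20.6 per Mb) and Prickle1 with 7 each. Dhx35, Irx3, Rnf220 and Tex14 had 6 each, and Kif26b, Ptprg, Sall1 and Slc39a11 5 each, as had Sox5. Of the 2907 genes nearest to a region at 96 h, 2095 had 1 region and 77 had 5 or more. At 120 h, 16 of 1638 had 5 or more. At 72 h, with recurrent regions likewise left out, no gene had more than 2, and Fgf8 was among those with 2.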

How the data were processed

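ChIP-seq with an antibody against CDX2 had been run on wild-type stembryos at 72, 96 and 120 h, with 1 library per stage. The authors trimmed reads with cutadapt 1.16 and mapped them to mm10 with Bowtie2 2.3.4.1. They kept properly paired fragments of high mapping quality with SAMtools 1.8 and called peaks with MACS2 2.1.1.20160309. The deposited lists give a fold enrichment over local background, −log10 p and q values computed by the authors' caller, and a summit offset in bases. Read totals were not used here.

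Peaks sharing an interval were merged into regions, and contigs, the mitochondrial genome and the Hox clusters were left out. Regions were annotated with protein-coding starts of GENCODE M21. They counted as near a start within 1000 bp and as shared with 1 overlapping base. Sequence came from RefSeq, and motifs were searched within 50 bp of a summit and in windows shifted by 500 bp. Shares have exact Clopper-Pearson intervals at 95%. Python 3.11.15, numpy 2.4.6, pandas 2.3.3, scipy 1.17.1, pysam 0.24.0 and matplotlib 3.10.9 were used, and the code was tested on simulated data. Named were the 20 strongest regions of each list, the 15 genes nearest to the most regions, and gene-list members with a region within 25 kb. The regions and lists were chosen with earlier results of these data known. Mutant libraries and a pooled list were not used. Alternatives are given in the closing section.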

Additional observations from a re-analysis of the deposited data

Results flagged for a closer look

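Some CDX2 signal lay outside the chromosomes described above. On unplaced or unlocalized contigs, 22 regions were called at 72 h, 24 at 96 h and 26 at 120 h, from 3, 4 and 4 contigs. Their highest fold enrichment was 35.6, 34.4 and 37.1 and their median 3.41, 3.71 and 3.63. On the mitochondrial genome, 1 region was called at 72 h, 6 at 96 h and 7 at 120 h. These regions stand out because they belong to none of the comparisons, and there was no control library for CDX2 to set them against.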

How the results depend on the processing

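Of 88 alternatives to 19 values, 32 left them close to the reported value and 56 moved them, for shares by more than the counting interval. No paired analysis was possible because each stage had 1 CDX2 library. At −log10 q of at least 5, 2855 regions remained at 96 h and 1393 at 120 h, and at a fold enrichment of at least 5, 95, 2336 and 1265 at 72, 96 and 120 h. The share of genes with a region, at 72, 96 and 120 h, was 0.188%, 5.85% and 2.67% within 10 kb, 1.105%, 31.7% and 16.8% within 100 kb, and 0.275%, 6.86% and 2.92% at the stricter q. The share near a start was 13.1% at 96 h and 11.9% at 120 h within 2.5 kb, 20.5%, 14.1% and 12.4% with starts of all transcripts, 6.48% at 96 h and 4.38% at 120 h at the stricter q, and 5.85% at 96 h with as many regions as at 120 h. Sharing of 120 h regions with 96 h was 61.4% by summits within 100 bp, 78.2% at the stricter q and 51.5% at equal list length. That of 96 h regions with 120 h was 30.6% at 50% overlap, 30.9% by summits, 44.2% at the stricter q and 51.3% at equal length, and that of 72 h regions with 96 h was 72.6% by summits and 67.1% at equal length. H3K27ac overlap was 43.2%, 19.9% and 16.3% when 50% of the region had to be covered, 45.2%, 33.5% and 16.1% with stricter H3K27ac regions, 26.4% at 120 h with stricter CDX2 regions, 41.2% at 96 h and 31.5% at 120 h with the library numbered 1, and 30.4% at 120 h with that numbered 2. A CDX core was found in 17.1%, 35.5% and 42.2% within 100 bp, the short core in 25.3%, 51.7% and 58.8%, and at the stricter q a core in 28.9% at 96 h and 33.7% at 120 h. With as many 96 h regions as at 120 h, also chosen after seeing the data, a core was in 30.5%. Leaving out recurrent regions, chosen after seeing the data, moved 72 h values only: 92 regions, 0.280% of genes, 7.61% near a start, 75.0% shared with 96 h, 54.3% shared with 120 h and 35.9% with H3K27ac. With 1 library per stage and no input, differences between stages have no replicate check.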

Other observations

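A set of 120 h regions differed from the rest by its place. Recurrent regions left out, 73 of 2178 regions (3.35%, 2.64-4.20%) overlapped all 6 lists of H3K27me3, the Polycomb mark, against 5 of 4391 at 96 h (0.114%). Of the 73, 46 (63.0%) lay within 1 kb of a start, 0 held a CDX core, and 3 were called at 96 h. Their median fold enrichment was 3.70, against 5.34 for the 120 h regions in no H3K27me3 list, and the median GC content of their windows was 61.4% against 45.5%. Examples, picked by eye, lay near Megf11, Crybg1, Bcl6b and Phlda2.

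Some regions were found with CDX2 alone. In no list of another antibody were 238 regions at 96 h and 74 at 120 h. A core was present in 30.3% (24.5-36.5%) of these at 96 h, against 25.5% of the others, and in 44.6% (33.0-56.6%) at 120 h, against 31.5%. Of the 238, 20 (8.40%) were called at 120 h, against 33.5% of the others. Of the 74, 24 (32.4%) were called at 96 h, against 66.2%. Their median fold enrichment was 4.32 against 5.13 at 96 h, and 4.61 against 5.25 at 120 h. Recurrent regions were left out of the others.

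The X chromosome held few CDX2 regions, at 0.251 per Mb against 1.76 per Mb on autosomes at 96 h, and 0.0760 against 0.877 at 120 h. H3K27ac regions of 96 h stood at 5.69 per Mb on X and 16.9 per Mb on autosomes.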
